A study of Mus musculus with 12 samples.

Results

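Matrix metalloproteinases (MMPs) and the tissue inhibitors that bind them (TIMPs) were followed in brain tissue next to an experimental bleed. The genes were the 10 whose symbols in the deposited table are *Mmp2*, *Mmp3*, *Mmp8*, *Mmp9*, *Mmp12*, *Mmp14*, *Mmp19*, *Timp1*, *Timp2* and *Timp3*, out of 54833 genes in all. RNA came from male wild-type C57BL/6 mice in 4 groups of 3 samples, which were young sham and young ICH at 8 to 10 weeks of age, and aged sham and aged ICH at 20 to 22 months. Intracerebral hemorrhage (ICH) was produced by an injection of type IV collagenase, a bacterial enzyme that opens vessel walls by cleaving their collagen, into the right striatum, and sham mice had the same surgery with saline alone. Tissue around the hematoma in the caudate putamen of that side, or the same place in sham mice, was taken at 24 h after perfusion with buffer. Tissue of several mice was pooled for each sample, so replicates vary as pools do and the variation among single mice is not known.

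Every sample had between 28410896 and 37785160 counted reads. Levels of one gene across samples are given as normalized CPM (counts scaled by library size and TMM factors of 0.954 to 1.04), and levels of different genes are compared in the deposited FPKM, which are also scaled to transcript length. Differences are log2 fold changes (log2FC) ± standard error (SE) with the fold change (FC), from the edgeR quasi-likelihood test on the counts of 3 samples per group. The test itself gives no SE, so it was derived as the absolute log2FC over the square root of the F statistic. It is approximate, above all where a group has few reads. A gene is called when its Benjamini-Hochberg adjusted *P* over the 21495 genes tested was under 0.05, and all 10 genes had enough counts to be tested. *Mmp8* reached that limit through the other groups, since its young sham samples held between 1 and 4 reads each.

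MMPs are zinc enzymes that cut collagens, laminins and other proteins of the extracellular matrix and of tight junctions, and they are made as inactive precursors that other proteases must cleave. TIMPs block the active enzymes by binding their catalytic site, and the balance of both families sets how fast matrix is broken down. In the brain the family is known for opening the basement membrane of vessels after stroke and hemorrhage, and for clearing and rebuilding matrix later. RNA counts measure transcripts only, and neither activation of the precursors nor inhibition was measured here.

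Some samples stood apart before any gene of the family was considered. The summed level of 6 choroid plexus markers, of which *Ttr* was the most abundant in every sample, was 1555, 1974 and 39.7 CPM in aged ICH and 66.7, 55.8 and 88.1 CPM in aged sham. In the young groups it was 55.0, 9.72 and 4071 CPM in ICH and 488, 303 and 53.2 CPM in sham. Aged ICH 1 and 2 and young ICH 3 thus carried far more choroid plexus RNA than the other ICH samples, and young sham 1 and 2 carried more than the other sham samples. None of the 6 markers was at 0 in any sample. By edgeR 0 of them were called in either ICH comparison, with 0 in young and 2 in aged mice at an unadjusted *P* under 0.05, and DESeq2 called 0 and 1. ICH results are therefore also given without the 3 ICH samples over 1000 CPM, and the comparison of sham mice without the 2 young sham samples over 300 CPM. Both limits were chosen after seeing the data. The first leaves aged ICH with 1 sample and the second leaves young sham with 1 sample, and each is assumed to vary like the others.

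A sham sample also stood apart in its immune cell markers. The 9 monocyte and macrophage markers, led by *Lyz2*, summed to 47.9, 37.9 and 81.8 CPM in aged sham and to 35.9, 31.0 and 33.2 CPM in young sham. The 12 neutrophil markers, led by *Csf3r*, summed to 15.3, 17.4 and 26.2 CPM in aged sham and to 11.03, 13.4 and 10.96 CPM in young sham. Aged sham 3 was the highest sham sample on both lists, and it recurs below as the highest sham sample of several MMPs. The labelled tissue was checked with 9 markers of striatal neurons, all of which were present in every sample. They summed to 3024, 1881 and 1774 CPM in young sham, 2338, 2640 and 1513 CPM in aged sham, 1235, 513 and 1725 CPM in young ICH, and 325, 1912 and 741 CPM in aged ICH. The ICH samples thus varied more in striatal neuron RNA than the sham samples and reached lower. By edgeR 0 of the 9 were called in either age, with 1 lower in each at an unadjusted *P* under 0.05 and 0 called by DESeq2, and their median log2FC was -0.95 in young and -1.13 in aged mice. In bulk tissue, fewer cells of a type and less RNA per cell cannot be told apart.

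ICH against sham asked how the family responds to the bleed at each age. In young mice 7 of the 10 genes rose, namely *Mmp3*, *Mmp8*, *Mmp9*, *Mmp12*, *Mmp14*, *Mmp19* and *Timp1*, against 9.89% of all genes tested that rose and 9.23% that fell. In aged mice 6 rose, the same genes without *Mmp8*, against 7% of all genes that rose and 6.15% that fell. No member was called lower by edgeR, DESeq2 or limma in either age, and 0 were lower at an unadjusted *P* under 0.05. In both ages 7 members were higher in all 3 ICH samples than in all 3 sham samples, against 18.5% of all genes in young and 17.8% in aged mice. The median log2FC of the 10 members was 1.80 in young mice beside 0.02 over all genes, and 1.26 in aged mice beside 0.00. *Mmp2*, *Timp2* and *Timp3* were not called in either age.

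Without the 3 ICH samples rich in choroid plexus RNA, 5 members were called in young mice (*Mmp8*, *Mmp9*, *Mmp12*, *Mmp19* and *Timp1*) among 2199 genes in all instead of 4110, and 2 in aged mice (*Mmp19* and *Timp1*) among 431 instead of 2828. Leaving out single samples moved the aged results more than the young ones. Without aged ICH 1 or aged sham 1 the aged members called were 3, and the genes called in all were 679 and 1222, while the latter were 1222 without aged ICH 3 and 1273 without aged sham 2. In young mice the genes called in all were 2411 without young ICH 3, 1858 without young sham 2 and 2682 without young sham 3, and at least 6 members were called whichever sample was left out.

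**Figure D1:**
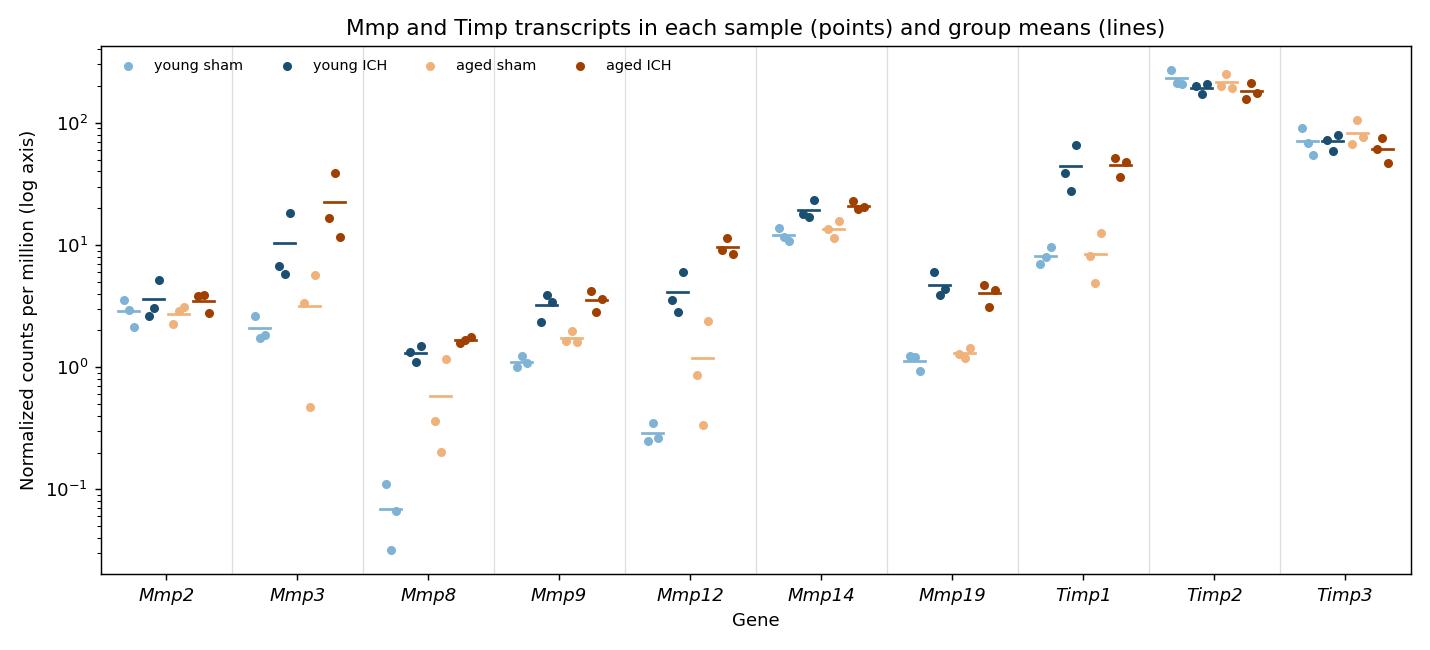
Normalized CPM of the 10 genes in each of the 12 samples on a log axis, with points for samples, lines for group means and colours for the 4 groups. For *Mmp3*, *Mmp8*, *Mmp9*, *Mmp12*, *Mmp14*, *Mmp19* and *Timp1* every ICH sample lies above every sham sample of the same age, while the groups of *Mmp2*, *Timp2* and *Timp3* overlap.

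Among the gelatinases, which cut denatured collagen and the type IV collagen of basement membranes, *Mmp9* and *Mmp2* differed in their response. *Mmp9* (ENSMUSG00000017737, chr2:164940780-164955850) encodes gelatinase B, made by neutrophils and induced in injured vessels and glia. It had 0.995, 1.24 and 1.09 CPM in young sham and 2.32, 3.89 and 3.44 CPM in young ICH. In aged mice it had 1.62, 1.99 and 1.62 CPM in sham and 4.18, 2.84 and 3.61 CPM in ICH. Each ICH sample exceeded each sham sample of its age, and the aged sham samples lay above the young sham samples. *Mmp9* rose with a log2FC of 1.54 ± 0.23 in young mice (FC 2.90, adjusted *P* = 0.00199) and of 1.03 ± 0.22 in aged mice (FC 2.04, adjusted *P* = 0.0133). The aged call was lost without aged ICH 1 (log2FC 0.89, adjusted *P* = 0.0659) or aged sham 1 (0.98, adjusted *P* = 0.0533), where leaving out 1 sample gave adjusted *P* from 0.00982 to 0.0659. Without the samples rich in choroid plexus RNA the log2FC was 1.48 (adjusted *P* = 0.0125) in young and 1.06 (adjusted *P* = 0.101) in aged mice.

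*Mmp2* (ENSMUSG00000031740, chr8:92827291-92853420) encodes gelatinase A, the gelatinase of resting tissue, whose precursor is activated at the cell surface by the product of *Mmp14* with TIMP-2 as the bridge. It had 3.54, 2.95 and 2.14 CPM in young sham and 2.61, 3.03 and 5.17 CPM in young ICH. The aged values were 2.25, 2.87 and 3.08 CPM in sham and 3.79, 3.86 and 2.77 CPM in ICH. The sham and ICH ranges overlapped in both ages, and the highest value was in young ICH 3. Its log2FC of 0.32 ± 0.27 in young (adjusted *P* = 0.447) and 0.34 ± 0.27 in aged mice (adjusted *P* = 0.445) did not pass the test. Without young ICH 3 the young value was -0.03, and without all samples rich in choroid plexus RNA the values were -0.03 in young and 0.02 in aged mice.

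*Mmp14* (ENSMUSG00000000957, chr14:54431612-54445364) encodes a membrane-anchored MMP that cuts collagen around the cell and activates the gelatinase A precursor. It had 13.7, 11.6 and 10.7 CPM in young sham and 18.0, 16.8 and 23.3 CPM in young ICH. In aged mice it had 13.4, 11.4 and 15.8 CPM in sham and 22.8, 19.7 and 20.4 CPM in ICH. The groups did not overlap in either age, but the step was the smallest of the 7 members that rose. *Mmp14* rose with a log2FC of 0.69 ± 0.15 in young mice (FC 1.61, adjusted *P* = 0.00966) and of 0.63 ± 0.15 in aged mice (FC 1.55, adjusted *P* = 0.0199). The aged call was lost without aged ICH 1 (adjusted *P* = 0.0868), aged ICH 3 (0.0529), aged sham 1 (0.0654) or aged sham 2 (0.0751), in a range of 0.00989 to 0.0868. Without the samples rich in choroid plexus RNA the log2FC was 0.53 (adjusted *P* = 0.0536) in young and 0.60 (adjusted *P* = 0.118) in aged mice.

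*Mmp3* (ENSMUSG00000043613, chr9:7445822-7455975) encodes stromelysin-1, which degrades laminin, proteoglycans and fibronectin and activates other MMP precursors, gelatinase B among them. It had 2.63, 1.74 and 1.85 CPM in young sham and 6.73, 5.79 and 18.4 CPM in young ICH. The aged values were 3.34, 0.472 and 5.66 CPM in sham and 16.5, 39.0 and 11.5 CPM in ICH. The groups did not overlap, yet values within a group were far apart, and the highest young ICH sample and both higher aged ICH samples were the ones rich in choroid plexus RNA. *Mmp3* rose with a log2FC of 2.31 ± 0.72 in young mice (FC 4.95, adjusted *P* = 0.0434) and of 2.81 ± 0.70 in aged mice (FC 7.01, adjusted *P* = 0.0244). Without the samples rich in choroid plexus RNA the log2FC was 1.59 (adjusted *P* = 0.146) in young and 1.86 (adjusted *P* = 0.196) in aged mice, and the part of those cells in the rise was not tested further.

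The *Mmp3* calls depended on several single samples. The young call was lost without young sham 1 (adjusted *P* = 0.0797), young sham 2 (0.140), young sham 3 (0.117), young ICH 1 (0.0518), young ICH 3 (log2FC 1.59, adjusted *P* = 0.166), aged sham 1 (0.0605) or aged ICH 1 (0.0546), within a range of 0.0172 to 0.166. The aged call was lost without aged sham 1 (adjusted *P* = 0.0816), aged sham 2 (0.0530), aged ICH 1 (0.0599) or aged ICH 2 (log2FC 2.14, adjusted *P* = 0.0632), within a range of 0.0150 to 0.0816. Without aged sham 3 the aged log2FC of *Mmp3* was 3.54. Over the planned settings the adjusted *P* of *Mmp3* was 0.0110 to 0.0827 in young mice, where limma (0.0582 and 0.0678) and a replicate block (0.0827) lost the call, and 0.00337 to 0.0496 in aged mice.

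*Mmp8* (ENSMUSG00000005800, chr9:7558456-7568485) encodes the collagenase that neutrophils store in their granules and that cuts fibrillar collagen. It had 0.111, 0.0317 and 0.0660 CPM in young sham and 1.33, 1.10 and 1.48 CPM in young ICH. In aged mice it had 0.364, 0.202 and 1.17 CPM in sham and 1.56, 1.66 and 1.76 CPM in ICH. Transcripts were close to absent in young sham mice and reached similar levels in all 6 ICH samples, and aged sham 3 lay nearer to the ICH samples than to the other sham samples. *Mmp8* rose in young mice with a log2FC of 4.13 ± 0.62 (FC 17.5, adjusted *P* = 0.00216). From the 7 reads in young sham and 126 in young ICH the ratio was 18.3, with a 95% interval of 8.64 to 46.5 that covers counting error only. In aged mice the log2FC was 1.49 ± 0.45 (FC 2.81, adjusted *P* = 0.0509), just short of the threshold.

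The aged value of *Mmp8* depended on aged sham 3, without which the log2FC was 2.53 and passed the test (adjusted *P* = 0.00470, within 0.00470 to 0.171 over single samples left out). DESeq2 (adjusted *P* = 0.0238), edgeR without a filter on low counts (0.0305) and limma on FPKM (0.0113 and 0.0206) also called it in aged mice, in a range of 0.0113 to 0.101 over all planned settings. The test of the difference between the ages gave a log2 difference of -2.63 ± 0.80 (unadjusted *P* = 0.00693, adjusted *P* = 1.0), so the smaller response in aged mice was not called. Without the samples rich in choroid plexus RNA the log2FC was 4.03 (adjusted *P* = 0.0162) in young and 1.58 (adjusted *P* = 0.227) in aged mice.

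*Mmp12* (ENSMUSG00000049723, chr9:7344381-7369499) encodes the elastase of macrophages, which degrades elastin and many other matrix proteins. It had 0.249, 0.349 and 0.264 CPM in young sham and 3.57, 2.83 and 6.05 CPM in young ICH. The aged values were 0.861, 0.337 and 2.37 CPM in sham and 9.17, 11.4 and 8.39 CPM in ICH. The sham and ICH ranges were far apart in both ages, aged sham 3 was again the highest sham sample, and all 3 aged ICH samples lay above the young ICH samples. *Mmp12* rose with a log2FC of 3.84 ± 0.58 in young mice (FC 14.3, adjusted *P* = 0.00224) and of 3.00 ± 0.49 in aged mice (FC 8.00, adjusted *P* = 0.00558). The aged log2FC was 4.0 without aged sham 3, and both calls stood whichever sample was left out. Without the samples rich in choroid plexus RNA the log2FC was 3.47 (adjusted *P* = 0.0150) in young and 2.80 (adjusted *P* = 0.0541) in aged mice.

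*Mmp19* (ENSMUSG00000025355, chr10:128790910-128800824) encodes an MMP that cuts basement membrane proteins such as type IV collagen, laminin and nidogen. It had 1.24, 1.21 and 0.924 CPM in young sham and 5.98, 3.86 and 4.38 CPM in young ICH. In aged mice it had 1.29, 1.18 and 1.44 CPM in sham and 4.74, 3.11 and 4.30 CPM in ICH. The sham samples of both ages sat close together, and the ICH samples of both ages covered about the same range above them. *Mmp19* rose with a log2FC of 2.07 ± 0.22 in young mice (FC 4.20, adjusted *P* = 0.000839) and of 1.63 ± 0.22 in aged mice (FC 3.11, adjusted *P* = 0.00379). By *P* it ranked as gene 27 of the 21495 in young and gene 58 in aged mice, ahead of every other member. Both calls stood with any sample left out and without the samples rich in choroid plexus RNA (log2FC 2.12, adjusted *P* = 0.00513 in young, and 1.73, adjusted *P* = 0.0326 in aged mice).

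Of the inhibitors, *Timp1* (ENSMUSG00000001131, chrX:20870166-20874735) encodes the inducible one, a secreted protein that binds gelatinase B and its precursor and inhibits membrane-anchored MMPs poorly. It had 6.94, 7.90 and 9.60 CPM in young sham and 38.9, 27.7 and 65.8 CPM in young ICH. The aged values were 8.08, 4.92 and 12.5 CPM in sham and 51.6, 35.9 and 47.8 CPM in ICH. The lowest ICH sample of either age was far above the highest sham sample, which was aged sham 3. *Timp1* rose with a log2FC of 2.44 ± 0.35 in young mice (FC 5.43, adjusted *P* = 0.00187) and of 2.40 ± 0.35 in aged mice (FC 5.29, adjusted *P* = 0.00441). Both calls stood with any sample left out and without the samples rich in choroid plexus RNA (log2FC 2.03, adjusted *P* = 0.00911 in young, and 2.49, adjusted *P* = 0.0284 in aged mice).

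*Timp2* (ENSMUSG00000017466, chr11:118301069-118355740) encodes the constitutive inhibitor that also helps to activate gelatinase A. It had 271, 213 and 207 CPM in young sham and 199, 171 and 208 CPM in young ICH. In aged mice it had 199.9, 249.7 and 194 CPM in sham and 156, 213 and 176 CPM in ICH. The ICH samples leaned lower but overlapped the sham samples in both ages. Its log2FC of -0.26 ± 0.14 in young (adjusted *P* = 0.228) and -0.24 ± 0.14 in aged mice (adjusted *P* = 0.295) did not pass the test. They were -0.32 and -0.28 without the samples rich in choroid plexus RNA, which did not pass either.

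*Timp3* (ENSMUSG00000020044, chr10:86300372-86349506) encodes the inhibitor that stays bound to the matrix and also blocks several ADAM and ADAMTS proteases. It had 91.4, 68.0 and 54.0 CPM in young sham and 71.9, 59.1 and 80.1 CPM in young ICH. The aged values were 67.2, 104.9 and 76.7 CPM in sham and 61.5, 75.2 and 46.5 CPM in ICH. Sham and ICH values were mixed in young mice and overlapped in aged mice. Its log2FC was -0.02 ± 0.22 in young (adjusted *P* = 0.970) and -0.44 ± 0.22 in aged mice (adjusted *P* = 0.221), and the young value changed sign to 0.01 with upper quartile scaling. The values were -0.12 and -0.83 (adjusted *P* = 0.175 in aged mice) without the samples rich in choroid plexus RNA.

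**Figure D2:**
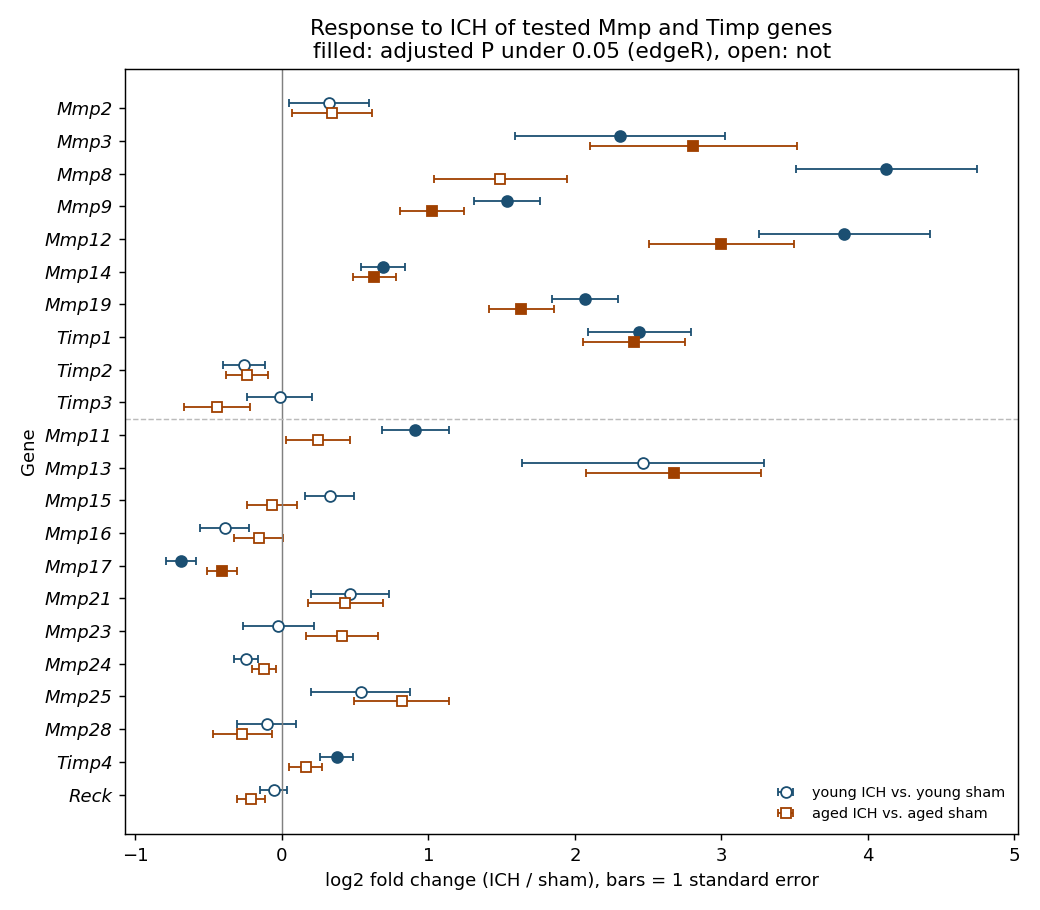
Log2 fold change of ICH over sham for every tested Mmp gene, the Timp genes and *Reck*, with circles for young and squares for aged mice, bars of 1 standard error, and filled symbols for an adjusted *P* under 0.05 by edgeR. The largest values are those of *Mmp8* (4.13) and *Mmp12* (3.84) in young mice, and *Mmp17* lies below 0 in both ages.

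Aged against young sham mice asked whether age alone shifts the family, and edgeR called 0 of the 10 members, against 0.102% of all genes (19 higher and 3 lower). At an unadjusted *P* under 0.05, *Mmp8*, *Mmp9* and *Mmp12* were higher in aged sham mice, and DESeq2 called *Mmp8* and *Mmp12*. These 3 also had a fold change over 1.5 with an unadjusted *P* under 0.05 by edgeR, limits that the study set on DESeq2 results, against 2.82% of all genes in that direction. *Mmp8* and *Mmp9* were higher in all aged than in all young sham samples, which 9.81% of all genes were. The median log2FC of the members was 0.22 beside 0.01 over all genes. Over all genes the 22 calls were 6 without aged sham 3 or young sham 2, 10 without aged ICH 1, aged sham 1 or young sham 1, 12 without young sham 3 and 14 without young ICH 1.

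In sham mice *Mmp8* differed by a log2FC of 2.98 ± 0.67 (unadjusted *P* = 0.000831, adjusted *P* = 0.160), and its value was 1.94 without aged sham 3. DESeq2 gave *Mmp8* a log2FC of 3.04 with an adjusted *P* of 0.00745, in a range of 0.00745 to 0.346 over all planned settings. *Mmp12* differed by 2.06 ± 0.62 (unadjusted *P* = 0.00611, adjusted *P* = 0.238), its aged and young sham samples overlapped, and its value was 1.06 without aged sham 3. By DESeq2 the log2FC of *Mmp12* was 2.05 with an adjusted *P* of 0.0205, in a range of 0.0205 to 0.644. *Mmp9* differed by 0.65 ± 0.23 (unadjusted *P* = 0.0157, adjusted *P* = 0.297). *Mmp3* differed by 0.61 ± 0.73 (adjusted *P* = 0.780), and its value was -0.12 without aged sham 3. Leaving out the young sham samples rich in choroid plexus RNA leaves young sham 3 alone in its group, so the spread comes from the other groups. The log2FC was then 3.08 for *Mmp8*, 2.17 for *Mmp12* and 0.67 for *Mmp9*.

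Some blood cell markers leaned to the same side as *Mmp8* and *Mmp12* between the sham groups, without a call by edgeR. Of 8 neutrophil markers tested, 6 were higher in aged sham at an unadjusted *P* under 0.05, with a list median log2FC of 2.01, while edgeR called 0 and DESeq2 called 1. *Mpo*, *Elane*, *Ly6g* and *Camp*, markers of neutrophils and their precursors, had at most 12 reads in any sample. Of 9 monocyte and macrophage markers 2 were higher at an unadjusted *P* under 0.05, with a median of 0.20, and edgeR called 0 while DESeq2 called 2. The 5 red cell markers, led by *Hbb-bs*, summed to 39.5, 27.8 and 36.8 CPM in aged sham and to 5.20, 22.4 and 7.36 CPM in young sham. Of these 3 were higher at an unadjusted *P* under 0.05, with a median of 1.58, and edgeR and DESeq2 called 0. The part of blood in the differences of the members was not tested.

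Aged against young ICH asked whether the injured tissue differs with age, and edgeR called 0 of the 10 members, against 0.0558% of all genes (8 higher and 4 lower). *Mmp12* alone was different at an unadjusted *P* under 0.05 and had a fold change over 1.5 besides, both by edgeR, against 2.21% of all genes in that direction, and DESeq2 called 0 members. It differed by a log2FC of 1.22 ± 0.45 (unadjusted *P* = 0.0191, adjusted *P* = 0.435). *Mmp12* and *Mmp8* were higher in all aged than in all young ICH samples, which 6.9% of all genes were, although *Mmp8* differed by only 0.34 ± 0.42 (adjusted *P* = 0.840). *Mmp3* differed by 1.11 ± 0.65 (adjusted *P* = 0.628), its value was 0.44 without aged ICH 2 and 1.83 without young ICH 3, and its ranges overlapped. *Timp1* differed by 0.03 ± 0.32 (adjusted *P* = 0.984). Leaving out the ICH samples rich in choroid plexus RNA gave 1.39 for *Mmp12*, 0.53 for *Mmp8*, 0.88 for *Mmp3*, 0.52 for *Timp1* and -0.49 for *Timp3*, which was -0.20 with them, and edgeR called 0 members and 2 genes in all. The median log2FC of the members was 0.07 beside 0.00 over all genes. At an unadjusted *P* under 0.05 by edgeR, 4 of 8 neutrophil markers were higher and 0 lower (median log2FC 1.25). Of 5 oligodendrocyte markers 4 were lower and 0 higher (-0.40), and of 6 fibroblast markers 3 were lower and 1 higher (-0.60). EdgeR called 0 of these, and DESeq2 called 2 oligodendrocyte and 2 fibroblast markers lower. The part of those cells in the differences of the members was not tested. Over all genes the 12 calls were 4 without young ICH 1 or 3, 6 without aged ICH 1 or 3, 7 without aged sham 1, aged sham 3 or young sham 2, and 19 without young ICH 2.

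The interaction of age and ICH asked whether the response itself differed between the ages, and edgeR called 0 members and 0% of all genes. At an unadjusted *P* under 0.05 it was 1 member, *Mmp8*, and 606 of all genes, and DESeq2 called 0 members and 1 gene in all. The response of *Mmp8* was smaller in aged mice by the -2.63 given above, which was -1.59 without aged sham 3, and the adjusted *P* of all members was 1.0. *Mmp12* had a difference of responses of -0.84 ± 0.76, which was 0.16 without aged sham 3. *Mmp9* had -0.51 ± 0.31, *Mmp19* -0.44 ± 0.31 and *Timp3* -0.42 ± 0.32. *Mmp3* had 0.50 ± 0.98, which was -0.17 without aged ICH 2, 1.24 without aged sham 3 and 1.22 without young ICH 3. *Timp1* had -0.04 ± 0.48. With the ICH samples rich in choroid plexus RNA left out, the difference of responses was -2.45 for *Mmp8*, -0.71 for *Timp3*, 0.28 for *Mmp3* and 0.46 for *Timp1*. With all samples the median of the members was -0.24 beside -0.01 over all genes. These 5 comparisons share samples, so their values for one gene are not independent.

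Levels per length, in FPKM, placed the 3 inhibitors above the 7 enzymes in both sham groups. In young sham mice *Timp2* had 56.6 ± 8.57 FPKM (SD, n = 3), ahead of *Timp1* at 8.79 ± 1.49 and *Timp3* at 8.36 ± 2.21, which did not differ beyond their spread. *Mmp14* led the enzymes at 1.93 ± 0.246 FPKM, ahead of *Mmp3* at 1.10 ± 0.256 and *Mmp2* at 0.817 ± 0.197, and these last 2 overlapped. *Mmp19* (0.305 ± 0.0463) and *Mmp9* (0.30 ± 0.0321) were alike, and *Mmp12* (0.0380 ± 0.00698) and *Mmp8* (0.0274 ± 0.0156) came last. Aged sham mice had the same inhibitor at the top, *Timp2* at 54.3 ± 7.57 FPKM, and then *Timp3* at 10.04 ± 2.36 and *Timp1* at 9.46 ± 4.33, again within their spread. Their enzymes again began with *Mmp14* at 2.24 ± 0.379, followed by *Mmp3* at 1.74 ± 1.44 and *Mmp2* at 0.801 ± 0.134, all FPKM. *Mmp9* (0.486 ± 0.0581), *Mmp19* (0.364 ± 0.0395), *Mmp8* (0.237 ± 0.214) and *Mmp12* (0.163 ± 0.146) followed, and the range of *Mmp8* overlapped those of the other 3. Aged sham 3 weighed on these means, since without it *Mmp3* had 1.04, *Mmp8* 0.114 and *Mmp12* 0.0810 FPKM.

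After ICH *Timp1* drew level with *Timp2*. In young ICH *Timp1* had 50.8 ± 23.3 FPKM and *Timp2* 50.4 ± 5.75, and in aged ICH *Timp1* had 52.6 ± 9.42 and *Timp2* 48.3 ± 7.83, so the order of these 2 did not exceed their spread in either age. *Timp3* stayed at 8.81 ± 1.44 FPKM in young and 7.77 ± 1.85 in aged ICH. Among the enzymes *Mmp3* now led with 5.87 ± 4.09 FPKM in young and 12.9 ± 8.49 in aged ICH, ahead of *Mmp14* with 3.31 ± 0.642 and 3.65 ± 0.279. The size of that lead depended on single samples rich in choroid plexus RNA, a look added after seeing the data. *Mmp3* had a mean of 3.52 FPKM in young ICH without young ICH 3, where *Mmp14* had 2.95, and of 8.05 in aged ICH without aged ICH 2. *Mmp3* and *Timp3* did not differ beyond their spread in either ICH group. The other 5 enzymes were between 0.549 and 1.37 FPKM in young ICH, where *Mmp19* was highest and *Mmp8* lowest. In aged ICH those 5 were between 0.709 and 1.38 FPKM, with *Mmp12* highest and *Mmp8* lowest. The order of the 10 genes was unchanged in all 4 groups when CPM per exon length, a scale added after seeing the data, took the place of FPKM. Within a group the 2 scales differed by about the same factor for every gene, so the order could hardly change and this is no separate check.

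The make-up of the inhibitor pool differed between sham and ICH samples. *Timp1* made up 8.36, 11.5 and 14.4% of the summed FPKM of *Timp1* to *Timp4* in young sham, and 39.5, 35.3 and 51.9% in young ICH. In aged mice its share was 12.4, 6.27 and 17.9% in sham and 51.8, 36.7 and 48.7% in ICH. Every ICH share was at least 35.3% and every sham share at most 17.9%. On the enzyme side, *Mmp14* was the most abundant of the 7 MMPs by FPKM in 5 of 6 sham samples, and aged sham 3, where *Mmp3* came first, was the exception. *Mmp3* came first in all 6 ICH samples, with 32.2 to 72.1% of their summed FPKM, and its largest shares were in aged ICH 2 and young ICH 3. The 7 MMPs summed to 3.94 to 8.36 FPKM in sham and 10.03 to 31.3 FPKM in ICH samples, and *Timp1*, *Timp2* and *Timp3* together to 67.1 to 84.7 and 82.7 to 142 FPKM.

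The rest of the family had fewer calls. Beside them, 9.89% of all genes tested rose and 9.23% fell in young mice, and 7% rose and 6.15% fell in aged mice. Of 18 further genes, which were the remaining MMPs with *Timp4* and *Reck*, 12 had enough counts to be tested. *Mmp1a*, *Mmp1b*, *Mmp7*, *Mmp10*, *Mmp20* and *Mmp27* had at most 5 reads in any sample and were not. In young mice 2 rose (*Mmp11* and *Timp4*) and *Mmp17* fell, and in aged mice *Mmp13* rose and *Mmp17* fell, with median log2FC of 0.15 and 0.05. With the samples rich in choroid plexus RNA left out, 1 rose and 1 fell in young mice and 0 were called by edgeR in aged mice. *Mmp17*, a membrane-anchored MMP held by a lipid tail, had 170, 197 and 215 CPM in young sham and 127, 130.2 and 104 CPM in young ICH. In aged mice it had 144, 136 and 127 CPM in sham and 110.4, 98.5 and 98.2 CPM in ICH. It had 15.3 to 31.3 FPKM over the 12 samples, its group means lay above those of every enzyme among the 10 genes and of *Timp3*, and in sham above *Timp1*, and no ICH sample reached a sham sample of its age. It fell by 0.69 ± 0.10 on the log2 scale in young mice (adjusted *P* = 0.00224) and by 0.41 ± 0.10 in aged mice (adjusted *P* = 0.0264). The aged *Mmp17* call was lost without aged ICH 1, 2 or 3 (adjusted *P* = 0.0580, 0.0608 and 0.0929) or aged sham 1 or 2 (0.0995 and 0.0743), in a range of 0.0127 to 0.0995, and it was 0.00377 to 0.0505 over the planned settings.

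*Mmp13*, a collagenase of remodeling tissue, was rare. Its reads numbered 1, 1 and 3 in young sham and 10, 5 and 14 in young ICH, and in aged mice 6, 0 and 10 in sham and 42, 25 and 41 in ICH. All ICH samples exceeded the sham samples of their age. From group sums the ratio was 5.91 (95% interval 2.26 to 19.5, counting error only) in young and 6.47 (3.81 to 11.7) in aged mice. *Mmp13* was called in aged mice (log2FC 2.67 ± 0.60, adjusted *P* = 0.0161) and not in young mice (2.46 ± 0.83, adjusted *P* = 0.0577). These calls changed with the tool, since DESeq2 called it in young mice (log2FC 2.53, adjusted *P* = 0.0267, within 0.0267 to 0.141 over the planned settings) and gave no adjusted *P* for it in aged mice. *Mmp13* passed the filter on low counts through its ICH samples. The aged call was lost without aged ICH 1 (adjusted *P* = 0.0635), aged ICH 3 (0.0549) or aged sham 1 (0.0551), its log2FC was 3.41 without aged sham 3, and a young call appeared without young ICH 2 (0.0464) or aged sham 2 (0.0151).

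*Mmp11* had a log2FC of 0.91 ± 0.23 in young (adjusted *P* = 0.0181) and 0.24 ± 0.22 in aged mice (adjusted *P* = 0.50). Its young call was lost without young ICH 3 (adjusted *P* = 0.0604), young sham 1 (0.0630) or young sham 3 (0.0545). *Timp4*, an inhibitor gene that overlaps *Syn2*, had 0.37 ± 0.11 in young (adjusted *P* = 0.0403) and 0.16 ± 0.11 in aged mice (adjusted *P* = 0.385). The *Timp4* call was lost without any one of the 3 young sham samples (adjusted *P* = 0.0719, 0.0726 and 0.135), young ICH 1 or 2 (0.139 and 0.0507), aged sham 3 (0.0552) or aged ICH 3 (0.0532), and its adjusted *P* was 0.0200 to 0.0796 over the planned settings. *Reck*, a membrane-bound MMP inhibitor, had -0.06 in young and -0.21 in aged mice and was not called.

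Lists of related genes place the 10 members among the proteases, substrates and cells around them. Over these lists, the rest of the family included, 171 other genes were tested. Of these, edgeR called 61 in young and 51 in aged mice after ICH, beside 4110 and 2828 of all 21495 genes. By direction, 9.89% of all genes rose and 9.23% fell in young mice, and 7% rose and 6.15% fell in aged mice. Between the ages edgeR called 0 of the 171 list genes in sham mice (34 at an unadjusted *P* under 0.05, 9 by DESeq2) and 0 in ICH mice (37 and 8). Of all 21495 genes, 2653 in sham and 2050 in ICH mice passed that unadjusted limit, and DESeq2 called 294 and 198. In the interaction test it called 0 as well (11 at an unadjusted *P* under 0.05, where all genes had 606, 0 by DESeq2, every adjusted *P* at 1.0). A call in one age alone, as for *Mmp11*, *Mmp13* and *Timp4*, is therefore not a called difference between the ages.

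The ADAM and ADAMTS proteases share the catalytic fold of the MMPs and several are inhibited by TIMP-3. Of 26 tested, 7 rose and 2 fell in young mice and 5 rose and 2 fell in aged mice (median log2FC 0.30 in young and 0.19 in aged mice), and without the samples rich in choroid plexus RNA those called were 8 in young and 3 in aged mice. *Adam8*, a protease of myeloid cells, had a log2FC of 2.07 ± 0.33 in young mice (adjusted *P* = 0.00281) and 2.08 ± 0.33 in aged mice (adjusted *P* = 0.00527). *Adamts9*, which cuts proteoglycans, had 2.05 ± 0.28 in young mice (adjusted *P* = 0.00166) and 1.70 ± 0.27 in aged mice (adjusted *P* = 0.00536). *Adamts1* had 1.86 ± 0.34 in young mice (adjusted *P* = 0.00449) and 1.58 ± 0.33 in aged mice (adjusted *P* = 0.0132, 0.00390 to 0.0552 with 1 sample left out and over 0.05 without aged ICH 1). *Adam15* had 0.34 ± 0.06 in young mice (adjusted *P* = 0.00515) and 0.36 ± 0.06 in aged mice (adjusted *P* = 0.00749). *Adamts14* had 1.25 ± 0.35 in young mice (adjusted *P* = 0.0292, 0.0194 to 0.114 with 1 sample left out and over 0.05 without young ICH 1 or 3 or young sham 2 or 3) and 1.22 ± 0.36 in aged mice (adjusted *P* = 0.0451, 0.0202 to 0.157 with 1 sample left out and over 0.05 without aged ICH 1 or 3, aged sham 1 or 2, young ICH 1 or young sham 2 or 3, 0.0241 to 0.0737 over the planned settings). *Adam19* fell with -0.38 ± 0.11 in young mice (adjusted *P* = 0.0285, 0.0103 to 0.0916 with 1 sample left out and over 0.05 without young ICH 1, 2 or 3 or young sham 2 or 3, 0.00603 to 0.122 over the planned settings) and -0.44 ± 0.11 in aged mice (adjusted *P* = 0.0228, 0.00979 to 0.0706 with 1 sample left out and over 0.05 without aged ICH 1 or 3 or aged sham 1, 2 or 3, 0.00265 to 0.0764 over the planned settings). *Adamts20* fell with -0.31 ± 0.09 in young mice (adjusted *P* = 0.0399, 0.0228 to 0.0983 with 1 sample left out and over 0.05 without aged ICH 1 or 3, aged sham 2, young ICH 1, 2 or 3 or young sham 1, 2 or 3, 0.0177 to 0.229 over the planned settings), and *Adamts3* with -0.95 ± 0.28 in aged mice (adjusted *P* = 0.0447, 0.00537 to 0.173 with 1 sample left out and over 0.05 without aged ICH 1 or 3, aged sham 1 or 2, young ICH 1 or young sham 1 or 2, 0.00554 to 0.0841 over the planned settings). By limma 0 of the list were lower in either age.

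Activators and partners of the family cleave the precursors, bind the enzymes or hold them in check. Of 12 tested, 7 rose and 1 fell in young mice and 7 rose and 1 fell in aged mice (median log2FC 0.43 in young and 0.54 in aged mice), and without the samples rich in choroid plexus RNA those called were 6 in young and 2 in aged mice. *Lcn2*, whose product binds gelatinase B and shields it from breakdown, had a log2FC of 3.10 ± 0.52 in young mice (adjusted *P* = 0.00335) and 2.88 ± 0.52 in aged mice (adjusted *P* = 0.00753, log2FC 3.71 without aged sham 3). *A2m*, which traps proteases in blood and tissue, had 3.19 ± 0.58 in young mice (adjusted *P* = 0.00428, log2FC 2.47 without young ICH 3) and 2.34 ± 0.56 in aged mice (adjusted *P* = 0.0206, 0.00920 to 0.0753 with 1 sample left out and over 0.05 without aged ICH 1 or aged sham 1, log2FC 2.99 without aged sham 3). The genes that fell were the proprotein convertases *Pcsk5* with -0.71 ± 0.22 in young mice (adjusted *P* = 0.0428, 0.00360 to 0.136 with 1 sample left out and over 0.05 without aged ICH 3, aged sham 1 or 3, young ICH 1 or 3 or young sham 1, 2 or 3, 0.00990 to 0.0857 over the planned settings) and *Pcsk6* with -0.72 ± 0.15 in aged mice (adjusted *P* = 0.0111, 0.0100 to 0.0504 with 1 sample left out and over 0.05 without aged ICH 1).

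Genes of the basement membrane, the substrate of the gelatinases and of MMP-19, were called in part. Of all genes tested 9.89% rose and 9.23% fell in young mice, and 7% rose and 6.15% fell in aged mice. The aged counts of this list were near those shares. Of 18 tested, 4 rose and 0 fell in young mice (0 lower by DESeq2 as well) and 2 rose and 1 fell in aged mice (median log2FC 0.47 in young and 0.29 in aged mice), and without the samples rich in choroid plexus RNA those called were 3 in young and 1 in aged mice. The type IV collagen gene *Col4a1* had a log2FC of 1.04 ± 0.13 in young mice (adjusted *P* = 0.00137) and 0.80 ± 0.13 in aged mice (adjusted *P* = 0.00533). Its partner *Col4a2* had 0.66 ± 0.09 in young mice (adjusted *P* = 0.00147) and 0.41 ± 0.09 in aged mice (adjusted *P* = 0.0130, 0.00650 to 0.0635 with 1 sample left out and over 0.05 without aged ICH 1). *Nid1* had 0.73 ± 0.13 in young mice (adjusted *P* = 0.00378), and *Hspg2*, whose groups overlapped, had 0.83 ± 0.26 in young mice (adjusted *P* = 0.0426, 0.0107 to 0.165 with 1 sample left out and over 0.05 without aged ICH 1, 2 or 3, aged sham 1 or 2, young ICH 2 or 3 or young sham 2 or 3, 0.00831 to 0.106 over the planned settings). *Lama2* fell, with -0.40 ± 0.11 in aged mice (adjusted *P* = 0.0333, 0.0217 to 0.127 with 1 sample left out and over 0.05 without aged ICH 1 or 3 or aged sham 1, 2 or 3, 0.00775 to 0.179 over the planned settings), and limma called 0 of the list lower in aged mice.

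Of 16 genes of tight junctions and other matrix, 6 rose in young mice, and 4 rose and 1 fell in aged mice (median log2FC 0.34 in young and 0.11 in aged mice), and without the samples rich in choroid plexus RNA those called were 4 in young and 1 in aged mice. *Tnc*, a matrix protein of wounds, had a log2FC of 2.32 ± 0.37 in young mice (adjusted *P* = 0.00264) and 2.30 ± 0.37 in aged mice (adjusted *P* = 0.00531). *Spp1* had 2.30 ± 0.36 in young mice (adjusted *P* = 0.00237) and 1.89 ± 0.35 in aged mice (adjusted *P* = 0.00800). *Fn1* had 1.06 ± 0.18 in young mice (adjusted *P* = 0.00347) and 0.99 ± 0.18 in aged mice (adjusted *P* = 0.00795). The tight junction gene *Cldn5* had 0.64 ± 0.11 in young mice (adjusted *P* = 0.00406) and 0.47 ± 0.12 in aged mice (adjusted *P* = 0.0228, 0.0107 to 0.0865 with 1 sample left out and over 0.05 without aged ICH 1 or aged sham 1 or 2, 0.00283 to 0.0522 over the planned settings). The proteoglycan gene *Acan* fell with -0.79 ± 0.21 in aged mice (adjusted *P* = 0.0333, 0.0265 to 0.126 with 1 sample left out and over 0.05 without aged ICH 1, 2 or 3 or aged sham 1 or 2, 0.00482 to 0.0622 over the planned settings).

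Known inducers of MMP genes are cytokines and the AP-1 transcription factors. Of the AP-1 genes, *Jun* and *Fosl1* rose in both ages and *Fosl2* in aged mice. Of the cytokines and their receptors, *Il6*, *Osm* and *Osmr* rose in both ages and *Lif* in young mice. The calls of *Jun*, *Fosl1*, *Fosl2* and *Osmr* were not followed with single samples left out. Of 13 tested, 6 rose in young and 6 in aged mice, and 1 in young and 0 in aged mice were lower at an unadjusted *P* under 0.05 (median log2FC 0.83 in young and 0.78 in aged mice), and without the samples rich in choroid plexus RNA those called were 4 in young and 1 in aged mice. *Il6* had 18 reads in sham and 102 in ICH, a ratio of 5.77 with a counting interval of 3.47 to 10.1 in young mice, and its log2FC was 2.50 ± 0.49 in young mice (adjusted *P* = 0.00599) and 2.97 ± 0.44 in aged mice (adjusted *P* = 0.00463). *Osm* had 14 reads in sham and 86 in ICH, a ratio of 6.26 with a counting interval of 3.53 to 11.9 in young mice, and its log2FC was 2.65 ± 0.73 in young mice (adjusted *P* = 0.0274, 0.0195 to 0.0773 with 1 sample left out and over 0.05 without young ICH 2 or 3 or young sham 2 or 3, log2FC 3.73 without young sham 1, 0.00169 to 0.0660 over the planned settings) and 2.19 ± 0.60 in aged mice (adjusted *P* = 0.0353, 0.0237 to 0.125 with 1 sample left out and over 0.05 without aged ICH 1 or 3 or aged sham 1 or 2, log2FC 2.80 without aged sham 3). *Lif* was called with 2.14 ± 0.54 in young mice (adjusted *P* = 0.0192, 0.00305 to 0.0759 with 1 sample left out and over 0.05 without young ICH 3 or young sham 1, 2 or 3, 0.000284 to 0.0546 over the planned settings).

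Neutrophils are known to carry *Mmp8* and *Mmp9*, and macrophages *Mmp12*. Of 8 neutrophil markers tested, 5 rose in each age, and without the samples rich in choroid plexus RNA those called were 5 in young and 0 in aged mice (median log2FC 2.84 in young and 1.55 in aged mice). *S100a9* had a log2FC of 3.67 ± 0.68 in young mice (adjusted *P* = 0.00479) and 2.30 ± 0.57 in aged mice (adjusted *P* = 0.0233, 0.00769 to 0.0856 with 1 sample left out and over 0.05 without aged ICH 1 or aged sham 1 or 2, log2FC 3.31 without aged sham 3). *S100a8* had 2.61 ± 0.57 in young mice (adjusted *P* = 0.00953) and 2.46 ± 0.50 in aged mice (adjusted *P* = 0.0113, 0.00945 to 0.0516 with 1 sample left out and over 0.05 without aged ICH 1, log2FC 3.12 without aged sham 3). *Cxcr2* had 3.08 ± 0.55 in young mice (adjusted *P* = 0.00406) and 2.43 ± 0.51 in aged mice (adjusted *P* = 0.0130, 0.00524 to 0.0561 with 1 sample left out and over 0.05 without aged ICH 1 or aged sham 1, log2FC 3.44 without aged sham 3), and *Csf3r* had 0.76 ± 0.16 in young mice (adjusted *P* = 0.00814) and 0.62 ± 0.16 in aged mice (adjusted *P* = 0.0256, 0.0145 to 0.116 with 1 sample left out and over 0.05 without aged ICH 1 or aged sham 1 or 2). *Retnlg* had 1 read in sham and 46 in ICH, a ratio of 46.9 with a counting interval of 8.00 to 1890 in young mice (adjusted *P* = 0.00281) and a log2FC of 2.16 ± 0.44 in aged mice (adjusted *P* = 0.0118). It passed the filter on low counts through its ICH samples, and its young log2FC ran from 4.38 without young ICH 2 to 6.98 without young sham 2.

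Of 9 monocyte and macrophage markers, 5 rose in young and 4 in aged mice (median log2FC 1.53 in young and 1.08 in aged mice), and without the samples rich in choroid plexus RNA those called were 3 in young and 1 in aged mice. *Chil3* had a log2FC of 3.58 ± 0.54 in young mice (adjusted *P* = 0.00227) and 2.94 ± 0.48 in aged mice (adjusted *P* = 0.00547, log2FC 3.56 without aged sham 3). *F13a1* had 2.34 ± 0.38 in young mice (adjusted *P* = 0.00274) and 1.72 ± 0.36 in aged mice (adjusted *P* = 0.0129, 0.00525 to 0.0560 with 1 sample left out and over 0.05 without aged sham 1). *Ccr2* had 1.94 ± 0.52 in young mice (adjusted *P* = 0.0249, 0.00494 to 0.10 with 1 sample left out and over 0.05 without young ICH 1 or 3 or young sham 1 or 2) and 1.82 ± 0.52 in aged mice (adjusted *P* = 0.0395, 0.0237 to 0.115 with 1 sample left out and over 0.05 without aged ICH 1 or 3, aged sham 1 or 2, young ICH 1 or young sham 2, log2FC 2.46 without aged sham 3, 0.00890 to 0.0651 over the planned settings). *Lyz2* had 1.93 ± 0.30 in young mice (adjusted *P* = 0.00261) and 1.08 ± 0.29 in aged mice (adjusted *P* = 0.0325, 0.00359 to 0.122 with 1 sample left out and over 0.05 without aged ICH 1 or 3 or aged sham 1 or 2, 0.00184 to 0.0636 over the planned settings), and *Mrc1* had 1.12 ± 0.29 in young mice (adjusted *P* = 0.0197, 0.0102 to 0.0727 with 1 sample left out and over 0.05 without young ICH 3 or young sham 2 or 3, 0.00116 to 0.0543 over the planned settings). Of 7 microglia markers (median log2FC -0.07 in young and -0.06 in aged mice), of which those called without the samples rich in choroid plexus RNA were 1 in young and 0 in aged mice, *P2ry12* fell with -0.70 ± 0.14 in young mice (adjusted *P* = 0.00592) and -0.85 ± 0.14 in aged mice (adjusted *P* = 0.00536), and *Siglech* fell with -0.80 ± 0.20 in young mice (adjusted *P* = 0.0159, 0.0113 to 0.0595 with 1 sample left out and over 0.05 without young ICH 3 or young sham 1 or 2) and -1.11 ± 0.20 in aged mice (adjusted *P* = 0.00727).

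Markers of vessels, glia and red cells were called in part. Of 8 endothelial markers 5 rose in young and 3 in aged mice (median log2FC 0.50 in young and 0.22 in aged mice), and without the samples rich in choroid plexus RNA those called were 4 in young and 0 in aged mice. The genes that rose in both ages were *Cldn5*, *Cdh5* with 0.77 ± 0.13 in young mice (adjusted *P* = 0.00337) and 0.72 ± 0.13 in aged mice (adjusted *P* = 0.00741), and *Pecam1* with 0.76 ± 0.12 in young mice (adjusted *P* = 0.00241) and 0.62 ± 0.12 in aged mice (adjusted *P* = 0.00856). In young mice *Flt1* had 0.40 ± 0.12 (adjusted *P* = 0.0370, 0.0104 to 0.146 with 1 sample left out and over 0.05 without aged sham 3, young ICH 1, 2 or 3 or young sham 2 or 3, 0.0131 to 0.0630 over the planned settings) and *Ly6c1* had 0.59 ± 0.14 (adjusted *P* = 0.0167, 0.0129 to 0.0727 with 1 sample left out and over 0.05 without young ICH 1 or young sham 2). Of 7 mural cell markers (median log2FC 0.39 in young and -0.07 in aged mice), the pericyte gene *Pdgfrb* alone was called, with 0.57 ± 0.09 in young mice (adjusted *P* = 0.00216) and 0.36 ± 0.09 in aged mice (adjusted *P* = 0.0200, 0.0127 to 0.0914 with 1 sample left out and over 0.05 without aged ICH 1 or 3 or aged sham 1 or 2). Of 6 fibroblast markers (median log2FC 0.59 in young and 0.23 in aged mice), *Dcn* alone was called, with 1.49 ± 0.19 in young mice (adjusted *P* = 0.00137) and 0.84 ± 0.18 in aged mice (adjusted *P* = 0.0143, 0.00866 to 0.0588 with 1 sample left out and over 0.05 without aged ICH 1 or aged sham 1 or 2). Of 5 astrocyte markers (median log2FC 0.61 in young and 0.38 in aged mice), *Aldh1l1* had 0.68 ± 0.09 in young mice (adjusted *P* = 0.00159) and 0.54 ± 0.09 in aged mice (adjusted *P* = 0.00599), *Gfap* had 1.33 ± 0.27 in young mice (adjusted *P* = 0.00705) and 1.13 ± 0.27 in aged mice (adjusted *P* = 0.0201, 0.0166 to 0.0797 with 1 sample left out and over 0.05 without aged ICH 1 or 3), *Aqp4* rose with 0.61 ± 0.14 in young mice (adjusted *P* = 0.0119, 0.00180 to 0.0558 with 1 sample left out and over 0.05 without young sham 2, 0.000522 to 0.0511 over the planned settings) and *Gja1* fell with -0.51 ± 0.14 in aged mice (adjusted *P* = 0.0320, 0.0220 to 0.120 with 1 sample left out and over 0.05 without aged ICH 1 or 3 or aged sham 2 or 3, 0.00366 to 0.0698 over the planned settings). Of 5 oligodendrocyte markers (median log2FC 0.11 in young and -0.34 in aged mice) 0 were called in young mice by edgeR or DESeq2 or at an unadjusted *P* under 0.05, and in aged mice *Mog* fell with -0.85 ± 0.18 (adjusted *P* = 0.0136, 0.0112 to 0.0587 with 1 sample left out and over 0.05 without aged ICH 1 or 3 or aged sham 2). Of 5 red cell markers (median log2FC 2.39 in young and 0.17 in aged mice) 3 hemoglobin genes rose in young mice, *Hbb-bs* with 2.75 ± 0.63 (adjusted *P* = 0.0123, log2FC 2.01 without young ICH 2, log2FC 3.80 without young sham 2), *Hba-a2* with 2.45 ± 0.53 (adjusted *P* = 0.00965, log2FC 3.41 without young sham 2) and *Hba-a1* with 2.39 ± 0.64 (adjusted *P* = 0.0239, 0.0119 to 0.0806 with 1 sample left out and over 0.05 without young ICH 2 or young sham 1 or 3, log2FC 1.57 without young ICH 2, log2FC 3.20 without young sham 2, 0.00373 to 0.0699 over the planned settings), although reads of their near-identical copies are hard to assign. With the samples rich in choroid plexus RNA left out, those called were 1 in young and 0 in aged mice for mural cells, 1 in young and 0 in aged mice for fibroblasts, 3 in young and 0 in aged mice for astrocytes and 2 in young and 1 in aged mice for red cells, and edgeR called 0 oligodendrocyte markers in either age. In aged mice with all samples 0 red cell markers were called by edgeR or DESeq2, and 1 was different at an unadjusted *P* under 0.05.

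The genes whose profiles over the 12 samples lay nearest to those of the members that rose were taken by their distance. It was the root mean square difference of log2 CPM after centring each gene on its mean, over all 21495 tested genes, and a small distance describes a likeness in these samples only. Nearest to *Mmp9* were *Itga2b* (0.21), *Tlr4* (0.21) and *Gm48808* (0.22). Nearest to *Mmp14* were *Nr1h3* (0.0825), *Triobp* (0.0831) and *Cd151* (0.0857). Nearest to *Mmp3* were *Fgfr4* (0.65), *Ccl2* (0.67) and *Ccr1* (0.68). *Mmp8* had *Flnc* (0.51), *Cd300lf* (0.55) and *Atf3* (0.55). *Mmp12* had *Clec4d* (0.45), *Thbs1* (0.48) and *Chil3* (0.51). *Mmp19* had *Mt1* (0.24), *Dab2* (0.28) and *Plin2* (0.30). *Timp1* had 2 entries that the authors numbered without a gene symbol (0.28 and 0.31) and *Cebpd* (0.31).

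In the genome, *Mmp3*, *Mmp8* and *Mmp12* belong to a cluster on chromosome 9 of build GRCm38, in the GENCODE vM21 annotation. It runs from *Mmp13* (chr9:7272514-7283331) through *Mmp12*, *Mmp1b*, *Mmp3*, *Mmp1a*, *Mmp10*, *Mmp8*, *Mmp27* and *Mmp20* to *Mmp7* (chr9:7692090-7699585). The 4 of these with enough reads to be tested, *Mmp13*, *Mmp12*, *Mmp3* and *Mmp8*, had all 3 ICH samples above all 3 sham samples in both ages, while the other 6 stayed at 5 reads or fewer. *Mmp13* had at most 10 reads in any sham sample and *Mmp8* at most 4 in young sham, so their being tested depended on the samples where they were higher, and the count of 4 is a description only. *Mmp2*, *Mmp9*, *Mmp14*, *Mmp19* and the 3 Timp genes lie on other chromosomes. Among all 10 members, *Timp2* alone is on the minus strand.

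**Figure D3:**
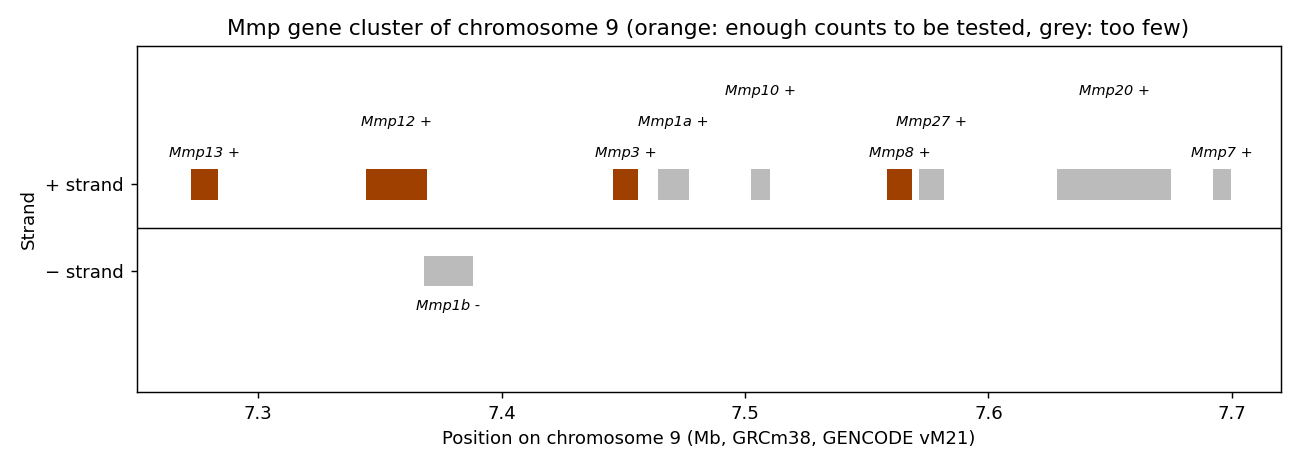
Map of the Mmp cluster on mouse chromosome 9 (GRCm38, position in Mb on the horizontal axis), with each gene as a bar, orange where it had enough reads to be tested and grey where it had too few. The 4 tested genes *Mmp13*, *Mmp12*, *Mmp3* and *Mmp8* share the cluster with 6 genes that had at most 5 reads in any sample.

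Several members share ground with other genes, and the strand setting of the counts is not given, so reads of exons that overlap on opposite strands cannot be told apart. *Timp1*, *Timp3* and *Timp4* lie inside the synapsin genes *Syn1*, *Syn3* and *Syn2*. *Timp3* shares 1733 exon bases (21.3% of its own) with *Syn3*, and *Timp1* shares 0 with *Syn1*. *Mmp19* shares 789 exon bases (22.3%) with *Tmem198b* on the opposite strand, and *Mmp12* shares 157 (2.17%) with *Mmp1b*. *Timp4* shares 90 (1.53%) with *Syn2*. The host genes did not follow *Timp1*: *Syn1* had a log2FC of -0.26 ± 0.14 in young mice (adjusted *P* = 0.210) and -0.14 ± 0.14 in aged mice (adjusted *P* = 0.558). *Syn3* had -0.53 ± 0.19 in young mice (adjusted *P* = 0.0767, 0.0376 to 0.170 over the planned settings) and -0.47 ± 0.19 in aged mice (adjusted *P* = 0.129), and *Syn2* had -0.38 ± 0.12 in young mice (adjusted *P* = 0.0462, 0.00923 to 0.132 with 1 sample left out and over 0.05 without aged ICH 1, 2 or 3, aged sham 1, young ICH 1 or 3 or young sham 1, 2 or 3, 0.0132 to 0.107 over the planned settings). DESeq2 called *Syn3* as well as *Syn2* in young mice. EdgeR called 0 of these 3 in either age without the samples rich in choroid plexus RNA.

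The promoters of MMP genes are known for the AP-1 site TGAGTCA and the TATA box TATAAA, and the annotated starts of RefSeq on GRCm38.p6 matched *Mmp3*, *Mmp8*, *Mmp12*, *Mmp14*, *Timp1*, *Timp2* and *Timp3*, but not *Mmp2*, *Mmp9* or *Mmp19*. Within 250 bases before the start, on either strand, TGAGTCA occurred in 4.46% of 32851 mouse promoters, TATAAA in 12.4% and both in 0.721%. *Mmp3* and *Mmp13* had both, *Mmp12* had TGAGTCA at the second of its 2 starts and neither at the first, and *Mmp8*, *Mmp14*, *Timp1*, *Timp2*, *Timp3* and *Timp4* had neither in this window. The TATAAA match began at -7 from the annotated start in *Mmp3* and at -16 in *Mmp13*, and whether it acts as a TATA box was not tested. Of *Mmp12* only the second start is printed below. The 100 bases before the start of the 4 tested cluster genes, on the plus strand at chr9:7445722-7445821, chr9:7272414-7272513, chr9:7347274-7347373 and chr9:7558329-7558428, are shown so that the matches can be read, with capitals for the 2 motifs. In *Mmp13* the site reads TGACTCA, its form on the reverse strand. A match of letters describes the sequence and is not evidence of a bound site or of a cause.
Mmp3: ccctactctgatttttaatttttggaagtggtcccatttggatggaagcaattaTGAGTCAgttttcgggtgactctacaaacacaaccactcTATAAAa
Mmp13: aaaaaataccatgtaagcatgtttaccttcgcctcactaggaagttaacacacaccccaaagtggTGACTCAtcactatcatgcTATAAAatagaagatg
Mmp12 second start: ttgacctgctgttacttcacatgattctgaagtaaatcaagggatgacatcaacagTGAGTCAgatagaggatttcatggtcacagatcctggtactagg
Mmp8: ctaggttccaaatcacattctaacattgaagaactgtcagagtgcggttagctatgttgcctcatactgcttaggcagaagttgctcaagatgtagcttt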

How the data were processed

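RNA of 12 samples, 3 in each of the 4 groups, was compared. The authors aligned reads to GRCm38.p6 with HISAT2 and counted them per gene with featureCounts (Subread), which gave the deposited counts. The authors also deposited FPKM, scaled to transcript length and library size, which were used as given. The strand setting and the handling of reads with several matches are not given. Counts were tested in R 4.3.3 with edgeR 4.0.16 (TMM scaling, filterByExpr with a minimum count of 10, 1 mean per group, quasi-likelihood tests, Benjamini-Hochberg adjustment over the 21495 genes tested). Every adjusted *P* without another tool beside it is from edgeR. Alternatives were DESeq2 1.42.0, limma 3.58.1 on log2 FPKM with 1 or 0.1 added, other scalings, no filter, the groups compared only, a replicate block, a fold change over 1.5 or under 0.67 with an unadjusted *P* under 0.05, and leaving out each sample. In the other lists, genes named were those called after ICH with the 3 largest changes, the chromosome 9 cluster, the synapsin genes, and any gene needed to name a count of 5 or fewer. These last, and the called *Jun*, *Fosl1*, *Fosl2* and *Osmr*, were chosen after their values were seen. Members and lists were chosen with earlier results of these data known.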

Additional observations from a re-analysis of the deposited data

How the results depend on the processing

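Each result was recomputed under the alternatives that were run for it. The interaction was not fitted with only the groups compared. Leaving out the choroid-rich ICH samples did not cover aged vs. young sham. Leaving out the choroid-rich young sham samples covered that comparison only. CPM per exon length covered only the order of the genes. Limma on FPKM changes the input, scaling and test together, and the criterion of fold change and unadjusted *P* changes both limits. Of the values of single genes in each comparison, those that kept their direction and side of the threshold, lost a call and gained one were 161, 0 and 7 with DESeq2, 170, 0 and 0 with RLE scaling, 165, 3 and 0 with upper quartile scaling, 164, 2 and 3 with no filter on low counts, 135, 19 and 2 with only the groups compared, 161, 4 and 2 with a replicate block, 144, 16 and 10 with limits on fold change and unadjusted *P*, 150, 14 and 2 with limma on log2(FPKM + 1), 153, 11 and 1 with limma on log2(FPKM + 0.1), 99, 55 and 1 with the 3 choroid-rich ICH samples left out, 7, 0 and 0 with the 2 choroid-rich young sham samples left out. The 2 exclusions of choroid-rich samples and CPM per exon length were chosen after seeing the data, and CPM divided by a length in the table could not be run, since the table has no lengths. No scaling moved the median of all genes by over 0.1. With upper quartile scaling the log2 values that changed sign were 0.0114 for *Timp3* in young ICH vs. sham, 0.0157 for *Hba-a1* in aged ICH vs. sham. With only the groups compared there were 2442 genes called in young ICH vs. sham, 10 genes called in aged vs. young sham, 3 genes called in aged vs. young ICH, and the log2 values that changed sign were 0.00959 for *Hba-a1* in aged ICH vs. sham. With a replicate block there were 12 genes called in aged vs. young sham, and the log2 values that changed sign were 0.0115 for *Timp3* in young ICH vs. sham, -0.0146 for *Timp1* in aged vs. young sham, 0.13 for *Timp1* in the interaction. With limits on fold change and unadjusted *P* there were 2612 genes called in young ICH vs. sham, 3 members called in aged vs. young sham, 799 genes called in aged vs. young sham, 1 member called in aged vs. young ICH, 756 genes called in aged vs. young ICH, 1 member called in the interaction, 336 genes called in the interaction. With limma on log2(FPKM + 1) the log2 values that changed sign were 0.0834 for *Timp3* in young ICH vs. sham, 0.44 for *Mmp12* in the interaction, 0.10 for *Timp1* in the interaction, -0.00562 for *Timp2* in the interaction. With limma on log2(FPKM + 0.1) the log2 values that changed sign were 0.0941 for *Timp3* in young ICH vs. sham, 0.0136 for *Mmp2* in aged vs. young ICH, 0.37 for *Mmp12* in the interaction, 0.11 for *Timp1* in the interaction, -0.00597 for *Timp2* in the interaction. With the 3 choroid-rich ICH samples left out there were 2199 genes called in young ICH vs. sham, 2 members called in aged ICH vs. sham, 431 genes called in aged ICH vs. sham, 2 genes called in aged vs. young ICH, and the log2 values that changed sign were -0.0338 for *Mmp2* in young ICH vs. sham, 0.66 for *Hba-a1* in aged ICH vs. sham, -0.11 for *Flt1* in aged ICH vs. sham, 0.0633 for *Mmp14* in the interaction, 0.46 for *Timp1* in the interaction. With no filter on low counts there were 1 member called in aged vs. young sham, 77 genes called in aged vs. young sham, 61 genes called in aged vs. young ICH, and the log2 values that changed sign were 0.000938 for *Hba-a1* in aged ICH vs. sham. With DESeq2 there were 2 members called in aged vs. young sham, 294 genes called in aged vs. young sham, 198 genes called in aged vs. young ICH, 1 gene called in the interaction. Leaving out the 2 choroid-rich young sham samples leaves 1 sample in young sham. The log2 values that then changed sign were 0.35 for *Mmp2*, -0.17 for *Timp1* and 0.0484 for *Timp2*, all in aged vs. young sham. Leaving out 1 sample at a time gave -0.18 to 0.21 for *Timp3* in young ICH vs. sham, 1858 to 4225 genes called in young ICH vs. sham, -0.0336 to 0.51 for *Mmp2* in young ICH vs. sham, -0.21 to 0.0360 for *Gja1* in young ICH vs. sham, 3 to 7 members called in aged ICH vs. sham, 679 to 3327 genes called in aged ICH vs. sham, -0.49 to 0.25 for *Hba-a1* in aged ICH vs. sham, -0.00346 to 0.17 for *Flt1* in aged ICH vs. sham, -0.29 to 0.40 for *Hbb-bs* in aged ICH vs. sham, 6 to 28 genes called in aged vs. young sham, -0.25 to 0.10 for *Mmp2* in aged vs. young sham, -0.12 to 1.11 for *Mmp3* in aged vs. young sham, -0.32 to 0.34 for *Timp1* in aged vs. young sham, -0.23 to 0.0275 for *Timp2* in aged vs. young sham, 4 to 19 genes called in aged vs. young ICH, -0.22 to 0.44 for *Timp1* in aged vs. young ICH, -0.21 to 0.0144 for *Timp2* in aged vs. young ICH, -0.24 to 0.30 for *Mmp2* in aged vs. young ICH, -0.0445 to 0.30 for *Mmp9* in aged vs. young ICH, -0.16 to 0.38 for *Mmp2* in the interaction, -0.17 to 1.24 for *Mmp3* in the interaction, -0.31 to 0.37 for *Timp1* in the interaction, -0.11 to 0.14 for *Timp2* in the interaction, -1.27 to 0.16 for *Mmp12* in the interaction, -0.16 to 0.0980 for *Mmp14* in the interaction. Deviations of samples with the same replicate number correlated between groups by -0.454 to 0.235. They were -0.102, -0.401 and -0.454 in aged vs. young ICH, while each other comparison had both signs. Replicate numbers were not taken as pairs. With a replicate block *Mmp3* lost its young call (adjusted *P* = 0.0827, from 0.0110 to 0.0827 over the planned settings) and *Mmp8* gained an aged one (0.0355, from 0.0113 to 0.101 over the planned settings). Where fewer samples or genes were tested the count follows in part from that, and otherwise the cause was not tested. At this depth *Mmp8*, *Mmp12* and *Mmp13* have few reads in sham samples, so their fold changes have wide counting error.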
